A study of Mus musculus with 4 samples.

Results

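The effect of Gfi1b loss that was shared by HSCs and CD41low/CD9low HSCs was taken from all 4 libraries of the series. Hematopoietic stem cells (HSCs, sorted as lineage-negative, CD150+, CD48−, Sca1+ and cKit+) and the CD41low/CD9low HSCs of C57Bl6 marrow gave 1 RNA-seq library per genotype and population, and the 2 populations served as the 2 replicates of the KO against WT comparison. A gene was read as shared when it differed between KO and WT in a fit to both pairs and went the same way within each pair. Of 37140 gene identifiers listed for all 4 libraries, 14745 had enough counts to be tested.

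The KO mice were Rosa-Cre Gfi1b fl/fl and the WT mice Rosa-Cre Gfi1b wt/fl according to the study's methods, so that WT cells had a floxed allele too and both groups carried Cre. The text deposited with the data instead describes Gfi1b flox/flox mice that had ROSA-Cre or lacked it. Both groups were given tamoxifen 2 weeks before harvest, and because Cre is driven from the Rosa26 locus, which is active in most tissues, the deletion was not limited to blood cells. Marrow of 10 WT and 5 KO mice was pooled before sorting. Each library is thus a pool, and the spread between mice was not measured. Whether both populations were sorted from the same pools is not stated, so the 2 pairs may not be independent. The labels and the study's methods give the HSC gate without CD41 or CD9, whereas the study's results section calls these cells CD41+/CD9+ HSCs, so whether the gates overlap cannot be settled from the sources used here.

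Gfi1b is a zinc finger repressor of blood stem cells, megakaryocytes and erythroid cells. It binds DNA at a core of the letters AATC, through the same kind of zinc fingers as its paralog Gfi1, and recruits the histone demethylase LSD1 and CoREST proteins through its SNAG domain to close target promoters. Its own promoter and that of Gfi1 are among its known targets, and mice without it have more HSCs and megakaryocytes but cannot make platelets normally.

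Total counts on genes ran from 12732079 to 50781007 per library, with both CD41low/CD9low HSC libraries below both HSC libraries. Kit, which encodes the sorted receptor cKit, was between 1013 and 1250 normalised CPM (the count of a gene relative to the library size scaled with TMM factors) in all 4 libraries. Itga2b, the gene of CD41, was at 562 in WT and 713 CPM in KO HSCs, with 134 and 203 in the CD41low/CD9low pair. Genes of other cell types were present. The summed level of 10 neutrophil markers was 463 CPM in WT and 557 CPM in KO HSCs, but 1104 CPM in WT and 279 CPM in KO CD41low/CD9low HSCs. Xist, the RNA of the inactive X chromosome, was at 1753 and 1642 CPM in the HSC pair and at 143 and 262 CPM in the CD41low/CD9low pair. The Y-linked Ddx3y was at 24.8 CPM in WT HSCs and between 84.9 and 90.4 CPM in the other 3 libraries. The part of these differences between libraries in the results was not tested.

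Gfi1b itself (ENSMUSG00000026815; GRCm38 chromosome 2, 28609450 to 28621982, reverse strand) was the first gene examined. Its count was 9256 in WT and 49910 in KO HSCs, and 611 in WT and 9741 in KO CD41low/CD9low HSCs. In CPM these were 187, 1236, 47.2 and 504 in the same order, so both KO libraries were above both WT libraries. The floxed exons 2 to 4 cannot be separated in a count per gene, and the count therefore does not check the deletion or the genotype labels, and the sample titles read Gfi1 where the genotype field reads Gfi1b. The KO/WT ratio was 6.598 in HSCs (95% interval for counting error 6.45 to 6.75) and 10.7 in CD41low/CD9low HSCs (9.86 to 11.6), with an adjusted p of 0.00022 in the fit to both pairs (edgeR's quasi-likelihood test).

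The promoter windows of 4 genes with large shared differences are shown because they hold the AATC core that Gfi1b binds. They come from RefSeq (GRCm38.p6), run 5′ to 3′ on the strand of the gene from 250 bases before to 50 bases after an annotated start, and have each AATC or its reverse complement GATT in capitals. The windows are chr2:28621933-28622232 (reverse strand) for Gfi1b, chr14:77156513-77156812 (forward) for Enox1, chr2:13793471-13793770 (reverse) for St8sia6 and chrX:164027961-164028260 (reverse) for Car5b.
Gfi1b: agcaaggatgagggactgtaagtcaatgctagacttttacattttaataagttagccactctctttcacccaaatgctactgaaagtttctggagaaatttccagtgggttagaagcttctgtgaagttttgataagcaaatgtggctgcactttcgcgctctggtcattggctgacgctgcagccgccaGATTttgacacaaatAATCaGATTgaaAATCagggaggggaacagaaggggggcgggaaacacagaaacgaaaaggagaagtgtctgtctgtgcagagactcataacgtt
Enox1: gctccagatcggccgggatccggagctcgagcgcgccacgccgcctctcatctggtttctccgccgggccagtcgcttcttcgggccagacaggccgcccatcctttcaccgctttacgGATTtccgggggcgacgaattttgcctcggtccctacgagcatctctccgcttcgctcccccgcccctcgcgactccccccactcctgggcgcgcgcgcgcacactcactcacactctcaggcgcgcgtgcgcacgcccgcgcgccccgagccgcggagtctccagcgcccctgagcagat
St8sia6: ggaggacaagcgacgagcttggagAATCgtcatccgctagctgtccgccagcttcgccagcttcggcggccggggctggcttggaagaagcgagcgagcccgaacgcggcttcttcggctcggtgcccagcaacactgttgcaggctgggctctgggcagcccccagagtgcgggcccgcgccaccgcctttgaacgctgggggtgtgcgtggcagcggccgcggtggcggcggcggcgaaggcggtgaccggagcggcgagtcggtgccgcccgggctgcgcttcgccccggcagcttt
Car5b: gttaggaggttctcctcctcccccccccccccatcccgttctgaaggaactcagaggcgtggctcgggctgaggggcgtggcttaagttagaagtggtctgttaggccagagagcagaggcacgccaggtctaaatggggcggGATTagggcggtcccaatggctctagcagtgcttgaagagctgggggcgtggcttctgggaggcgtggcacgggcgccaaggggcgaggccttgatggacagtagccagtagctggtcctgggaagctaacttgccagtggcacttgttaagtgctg
The Gfi1b window held 4 matches, which started between positions -60 and -33 from the start, and the other windows held 1 match each. None held the longer form AATCNCNGC. On either strand, AATC was present in 79.55% of the 44 windows found for 35 shared higher genes and in 41.67% of the 12 windows found for 9 shared lower genes. It was present in 66.45% of the 13519 windows of tested genes and in 73.11% of all 32851 windows of the same length, so that a match is common in any promoter. AATCNCNGC was in 1 window of the shared higher genes, in 0 of the shared lower genes and in 4.17% of the windows of tested genes.

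In the fit to both pairs, 49 of 14745 genes were higher in KO (0.332%) and 16 were lower (0.109%) at an adjusted p under 0.05 (edgeR's quasi-likelihood test with population as block, which is meant wherever a gene is said to be called and no other test is named). Of these 65 genes, 58 went the same way in both pairs, 45 of them higher and 13 lower in KO. For 56 of the 58, the counting interval of the ratio was on the side of the call in both pairs, the exceptions being Mrvi1 and Clec1b. The median log2 KO/WT of the 45 higher genes was 1.82 in the HSC pair and 1.26 in the CD41low/CD9low pair, and that of the 13 lower genes was -1.70 and -1.35. The difference was larger in HSCs for 34 of the 45 and for 11 of the 13. The deeper HSC libraries carry more weight in the fit. The choice of genes can therefore favour large differences in HSCs, and the difference in size between the pairs was not tested. Beyond 2 fold in both pairs were 26 of the higher and 11 of the lower genes.

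**Figure D1:**
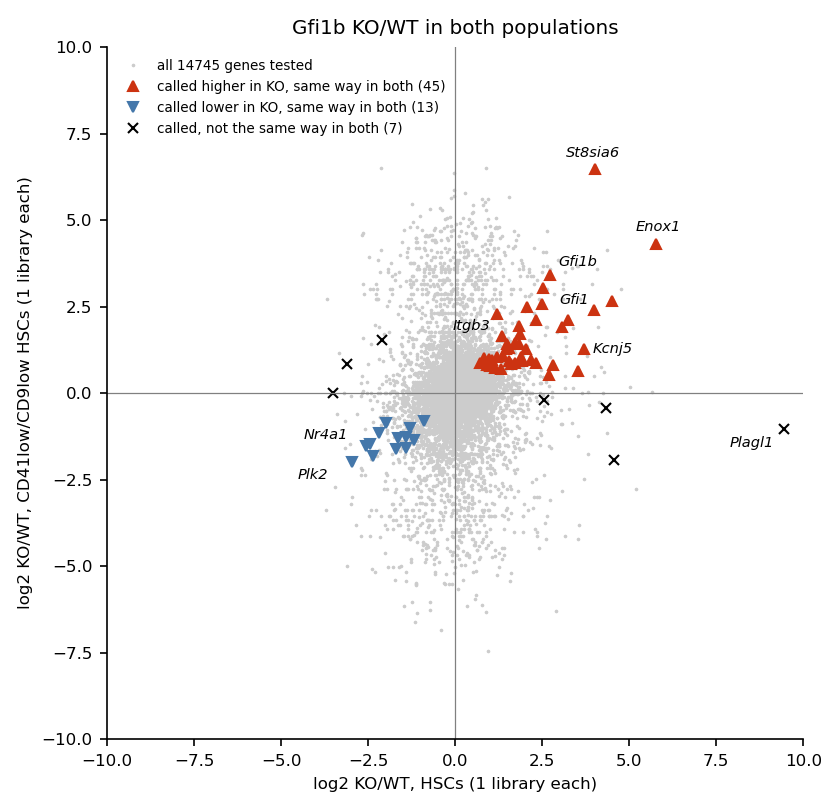
Log2 KO/WT in CD41low/CD9low HSCs (vertical axis) against log2 KO/WT in HSCs (horizontal axis), 1 library per genotype and population, computed with a prior count of 2. Grey points are the 14745 genes tested, triangles the 45 higher and 13 lower shared genes, and crosses the 7 genes called in the fit that did not go the same way in both pairs.

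The limits of this fit are those of its size. With 4 libraries and population as block, 1 residual degree of freedom was left, and the spread of each gene was estimated mostly from the other genes. Without the block, 0 genes were called by edgeR's quasi-likelihood test in either direction, 222 genes having an unadjusted p under 0.05. The difference between the 2 populations then counts as spread within a genotype, so that fit cannot tell how firm the calls are. Fits that leave out each library in turn mix genotype with population and are given further below. Across all genes tested, 55.8% differed in the same direction in the 2 pairs. A ratio past 1.5 fold in both pairs was seen for 491 genes higher in KO (3.33%) and for 512 lower in KO (3.47%), and these are cutoffs on single libraries, not tests. Another 665 genes were past 1.5 fold in opposite directions, and the Pearson correlation of log2 KO/WT between the pairs was 0.102. Each pair taken by itself had 11.74% (HSCs) and 12.66% (CD41low/CD9low HSCs) of genes past 1.5 fold higher, and 9.685% and 13.52% lower. Among the 8887 genes with at least 200 counts in every library, 56 were past 1.5 fold higher in both pairs and 48 lower in both. In opposite directions there were 19, and the Pearson correlation was 0.28.

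Transcription factors of early blood cells were among the shared higher genes. Gfi1 (ENSMUSG00000029275, chromosome 5, 107716657 to 107726036, reverse strand), the paralog of Gfi1b, had 11.48 CPM in WT and 109 CPM in KO HSCs, and 31.9 CPM in WT and 137 CPM in KO CD41low/CD9low HSCs. Both KO libraries were above both WT libraries, and Gfi1 rose by 3.24 and 2.10 on the log2 scale in the 2 pairs (adjusted p = 0.0018). Gata2, a zinc finger factor needed by HSCs, had 295 in WT and 577 CPM in KO HSCs, with 196 and 385 in the CD41low/CD9low pair. Its log2 KO/WT was 0.97 in each pair (adjusted p = 0.014). Gfi1 was the only 1 of 18 members of the Gfi1b corepressor list called besides the targeted gene, which was not on it. Of the other members, Gse1 had log2 KO/WT values of 0.54 and 0.50 and Rcor3, a CoREST protein, 0.51 and 0.83, without passing the test (adjusted p = 0.16 and 0.36). In that list 11 of 18 members were higher in KO in both pairs, against 28.5% of all genes tested, and the median log2 KO/WT of the fit was 0.09, against 0.01 for all genes.

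Gata2 was also the 1 called gene among 32 HSC identity genes. Procr, which encodes the stem cell marker EPCR, had 46.9 in WT and 102 CPM in KO HSCs, with 162 and 248 in the CD41low/CD9low pair (adjusted p = 0.056). Ifitm1, an interferon-induced membrane protein, had log2 KO/WT values of -1.22 and -0.45 (adjusted p = 0.13). Higher in KO in both pairs were 18 of the 32 genes and lower in both were 10, against 28.5% and 27.3% of all genes tested. At an unadjusted p under 0.05, 9 were higher and 5 lower, against 900 and 699 of all 14745 genes tested. DESeq2 called 3 as higher and 1 as lower, and limma-voom and the likelihood ratio test each called 3 and 2.

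Genes of megakaryocytes and platelets made up the largest group of shared calls in any list. Of 43 tested members, 7 rose and 1 fell in KO, against 0.332% and 0.109% of all genes tested. The list was chosen with earlier results of these data known, so this comparison is a description and not a test. Itgb3, the integrin beta 3 subunit (CD61) of the platelet fibrinogen receptor, had 208 CPM in WT and 685 CPM in KO HSCs, and 50.5 CPM in WT and 139 CPM in KO CD41low/CD9low HSCs (adjusted p = 0.0014). WT HSCs were thus above KO CD41low/CD9low HSCs, and the difference by genotype was seen within each pair. F2r, the thrombin receptor PAR1, had 270, 771, 72.9 and 179 CPM in WT HSCs, KO HSCs, WT CD41low/CD9low HSCs and KO CD41low/CD9low HSCs. Cavin2, a coat protein of caveolae, had 188, 475, 27.8 and 87.2 CPM in the same order. Both had an adjusted p of 0.0026. Nrgn, a calmodulin-binding protein, had log2 KO/WT values of 1.46 and 1.26 and Plek, the platelet kinase substrate pleckstrin, of 1.60 and 0.83. Serpine2, a protease inhibitor, had 1.73 and 0.87 from 34 and 94 counts in the CD41low/CD9low pair. Clec1b, the podoplanin receptor CLEC-2, had 353 in WT and 1868 counts in KO HSCs, with 28 and 60 in the CD41low/CD9low pair, and its ratio in the latter pair was within counting error of 1.

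Selp, the adhesion receptor P-selectin of platelet granules, was the 1 member that fell. It had 65.6 in WT and 24.6 CPM in KO HSCs, with 22.9 and 9.42 in the CD41low/CD9low pair (adjusted p = 0.024). Members that did not pass the test had values on both sides of 0, of which 5 are named here after their values were seen. Tubb1, the platelet beta tubulin, had log2 KO/WT values of -2.24 and -1.81, Cd36 of -1.72 and -0.74 and Thbs1 of -1.03 and -1.56. Itga2b had 0.34 and 0.60, and Pf4, a chemokine of platelet granules, had -0.18 and -0.11. Of the 43 genes, 21 were higher in both pairs and 11 lower in both, against 28.5% and 27.3% of all genes tested, and the median log2 KO/WT was 0.29 in the HSC pair and 0.09 in the CD41low/CD9low pair. In bulk samples, fewer cells of a type and less RNA per cell cannot be told apart. The summed level of 9 megakaryocyte markers was 1558 in WT and 1856 CPM in KO HSCs, with 482 and 512 in the CD41low/CD9low pair, and its part in the calls was not tested.

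**Figure D2:**
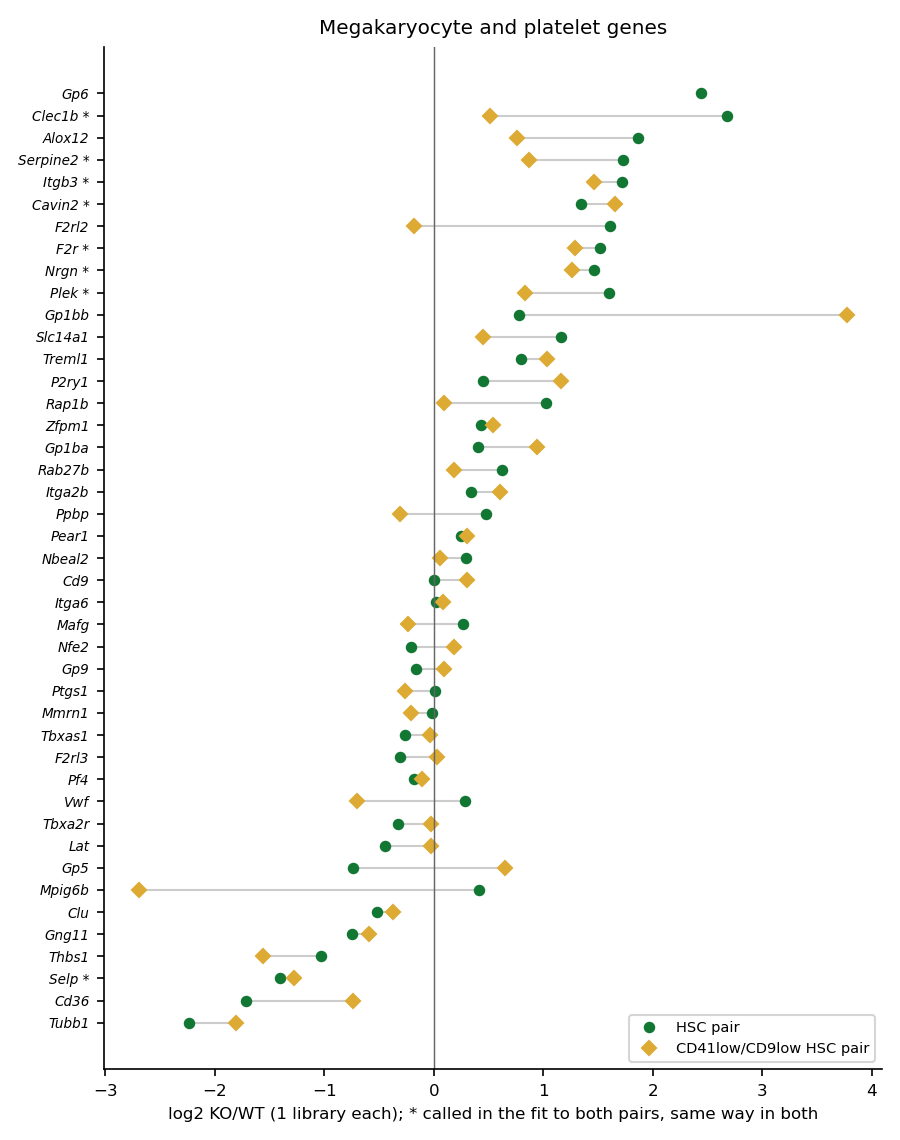
Log2 KO/WT (horizontal axis) of the 43 tested megakaryocyte and platelet genes in the HSC pair (circles) and the CD41low/CD9low HSC pair (diamonds), 1 library per genotype. Genes marked with an asterisk were called in the fit to both pairs: 7 are to the right of 0 in both pairs and Selp is to the left. A gene with 0 counts in 1 library of a pair is drawn at the bound that 3 counts give, and a gene with 0 counts in both has no point.

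The 12 protein-coding genes with the largest smaller-of-2 log2 ratio among those that rose had other roles for the most part. Enox1, a plasma membrane oxidase, had 6 counts in WT and 410 in KO HSCs, and 0 in WT and 24 in KO CD41low/CD9low HSCs. In the latter pair its KO/WT ratio was 5.37 with the WT library set at 3 counts, and the counting interval of the ratio started at 4.04. St8sia6, a sialyltransferase that adds sialic acid to glycans, had 211 in WT and 2842 counts in KO HSCs, with 1 and 241 in the CD41low/CD9low pair. These genes were close to undetected in WT CD41low/CD9low HSCs, and so were the carbonic anhydrase-related gene Car8, with 3 counts there, and the potassium channel gene Kcnj5, with 13, which is named here after its values were seen.

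Lgals1, the glycan-binding protein galectin-1, had 22.7 CPM in WT and 114 CPM in KO HSCs, and 30.9 CPM in WT and 133 CPM in KO CD41low/CD9low HSCs (adjusted p = 0.00056). Timp3, an inhibitor of matrix metalloproteinases, had 67.5, 281, 9.80 and 55.2 CPM in WT HSCs, KO HSCs, WT CD41low/CD9low HSCs and KO CD41low/CD9low HSCs (adjusted p = 0.00062). For Lgals1 both KO libraries were above both WT libraries, whereas for Timp3 the KO CD41low/CD9low library was below the WT HSC library. Dsp, the desmosome protein desmoplakin, had log2 KO/WT values of 3.08 and 1.91. Car5b, a mitochondrial carbonic anhydrase, had 2.50 and 2.58, and the septin gene Sept10 had 1.13, 19.2, 1.62 and 8.75 CPM in the order used for Timp3. Stx3, a syntaxin of membrane fusion, had 1.82 and 1.93, and the tetraspanin gene Tspan2 had 1.85 and 1.72. All 5 had an adjusted p under 0.05 and higher values in KO in both pairs.

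Of the remaining shared higher genes, several that encode parts of the cytoskeleton, junctions and matrix are named here after their values were seen. Vim, the intermediate filament vimentin, had 342 in WT and 672 CPM in KO HSCs, with 290 and 538 in the CD41low/CD9low pair. Tjp1, the tight junction protein ZO-1, had log2 KO/WT values of 1.82 and 1.43, Myo6, a myosin motor, of 2.03 and 1.27, and Lamb2, a laminin chain, of 2.19 and 0.96. Ltbp1, which holds latent TGF-beta in the matrix, had 2.81 and 0.81. Cd53, a tetraspanin of leukocytes, had 38.8 in WT and 108 CPM in KO HSCs, with 35.7 and 94.5 in the CD41low/CD9low pair. Ndrg1, the called member of the glycolysis and hypoxia list, had log2 KO/WT values of 0.72 and 0.87 (adjusted p = 0.039), while of the 23 members of that list 13 were lower in KO in both pairs and 4 higher in both. One called identifier, ENSMUSG00000095306, has no symbol in the references used and had 587 and 2780 counts in HSCs and 24 and 301 in CD41low/CD9low HSCs, in WT and KO.

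**Figure D3:**
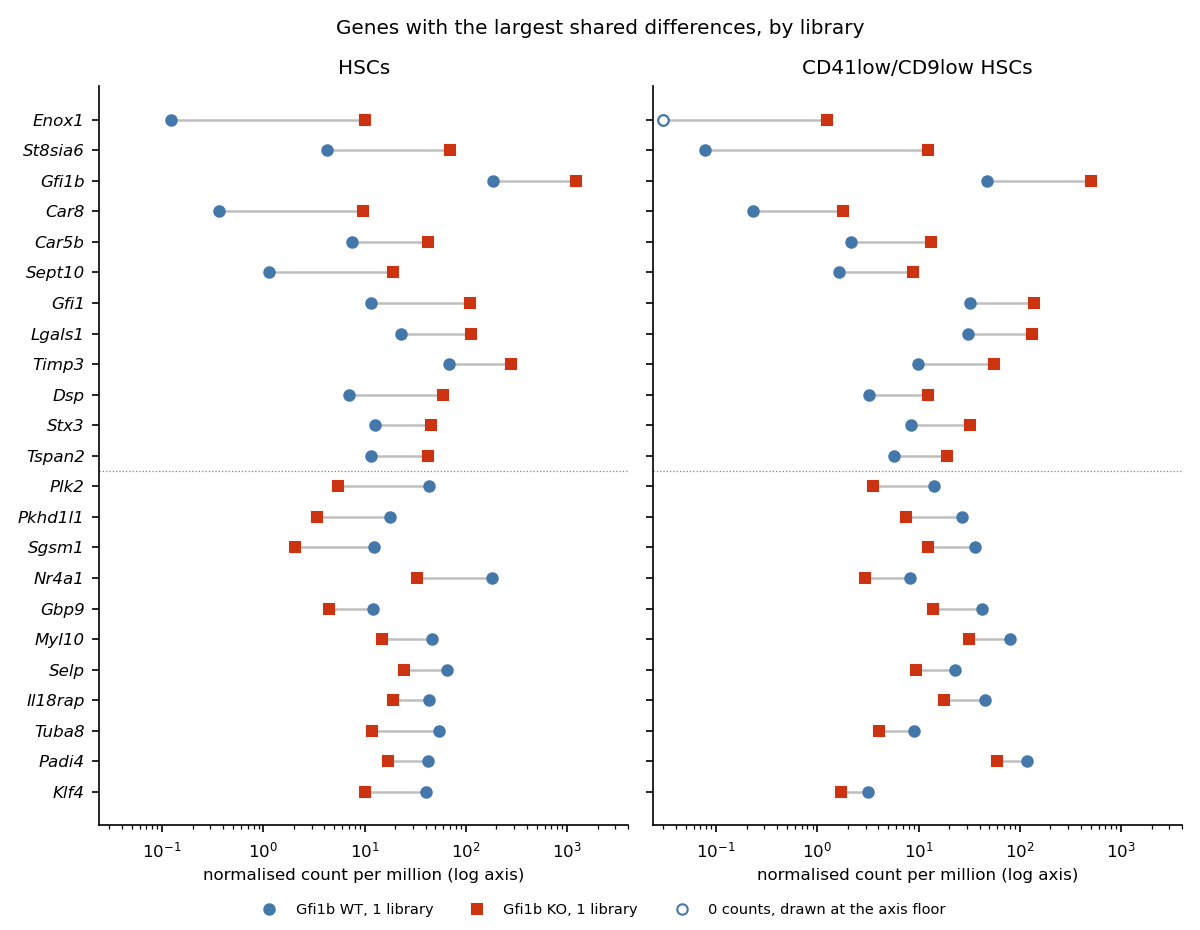
Normalised CPM (log axis) of the 12 higher and 11 of the 12 lower protein-coding genes with the largest shared differences, in HSCs (left) and CD41low/CD9low HSCs (right). Circles are the WT and squares the KO library of each population, and the open circle of Enox1 stands for 0 counts. Every square is to the right of its circle above the dotted line and to the left below it, which the choice of genes fixes.

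The protein-coding genes that fell included receptors of adhesion and of immune signalling. Selp was described above, and Il18rap, a subunit of the interleukin 18 receptor, had 2131, 767, 594 and 346 counts in the order WT HSCs, KO HSCs, WT CD41low/CD9low HSCs and KO CD41low/CD9low HSCs (adjusted p = 0.028). Il18r1, the other chain of that receptor and a member of the cytokine receptor list, had 484 in WT and 132 counts in KO HSCs, with 48 and 1 in the CD41low/CD9low pair, and did not pass the test (adjusted p = 0.23). Of the 35 tested members of the cytokine receptor list 0 were called by edgeR's quasi-likelihood test, with 12 higher and 8 lower in both pairs. At an unadjusted p under 0.05, 8 were higher and 6 lower, against 900 higher and 699 lower of all 14745 genes tested. In this list limma-voom called 2 in each direction, DESeq2 called 1 as lower and the likelihood ratio test 2 as lower.

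Plk2, a polo-like kinase and p53 target, had 43.2 in WT and 5.45 CPM in KO HSCs, with 14.3 and 3.52 in the CD41low/CD9low pair, the largest shared decrease (adjusted p = 0.0069). It was the 1 called gene among 27 p53 targets, of which 8 were higher and 7 lower in both pairs. Nr4a1, an orphan nuclear receptor of the immediate-early genes, had 182 in WT and 33.1 CPM in KO HSCs, with 8.26 and 2.95 in the CD41low/CD9low pair, from 107 and 57 counts (adjusted p = 0.0026). Klf4, a Krüppel-like factor on both the immediate-early and the monocyte lists, had 1988 and 409 counts in HSCs and 41 and 33 in CD41low/CD9low HSCs, in WT and KO (adjusted p = 0.049). For Nr4a1 and Klf4 the KO HSC library was above both CD41low/CD9low libraries.

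The difference between the pairs in the 35 tested immediate-early genes was not tested. Their median log2 KO/WT was -1.37 in the HSC pair and 0.00 in the CD41low/CD9low pair, where 5 members had 0 counts in a library and the median with those at the bound of 3 counts was -0.17. Lower in KO in both pairs were 16 of the 35 and higher in both were 2. In the fit to both pairs 24 were lower and 1 was higher at an unadjusted p under 0.05, against 699 lower and 900 higher of all 14745 genes tested. As lower, edgeR's quasi-likelihood test called 4, DESeq2 5, the likelihood ratio test 12 and limma-voom 19, and as higher these called 0, 1, 1 and 1. Atf3 and Nr4a2, which the fit also called, did not go the same way in both pairs. Atf3 had only 0 and 1 counts in WT and KO CD41low/CD9low HSCs, too few to give a direction.

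Other genes that fell were Pkhd1l1, with 17.7, 3.37, 26.8 and 7.56 CPM in WT HSCs, KO HSCs, WT CD41low/CD9low HSCs and KO CD41low/CD9low HSCs, and Padi4, a peptidylarginine deiminase that citrullinates proteins, with 42.1, 16.97, 119 and 59.2 CPM. Tuba8, a tubulin, had log2 KO/WT values of -2.20 and -1.15, and Myl10, a myosin light chain, had -1.63 and -1.31. Sgsm1 had -2.55 and -1.54, and Gbp9, an interferon-inducible GTPase with close paralogs among which reads may be divided, had -1.42 and -1.60. The mitochondrial 12S ribosomal RNA, mt-Rnr1, was the 1 shared lower gene that is not protein-coding. It had 2184, 1173, 637 and 363 CPM in the same order as Pkhd1l1 (adjusted p = 0.049).

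The lists of cell cycle genes had the most uniform direction of the 29 lists, although 0 of their members passed edgeR's quasi-likelihood test. At an unadjusted p under 0.05 there were 15 DNA replication and 26 mitosis genes, lower in KO in each case, against 699 lower of all 14745 genes tested. As lower, limma-voom called 1 and 2 of them, DESeq2 1 and 0, and the likelihood ratio test 2 and 2. Of 45 DNA replication genes, 39 were lower in KO in both pairs and 1 was higher in both, against 27.3% lower in both among all genes tested. The counting interval was below 1 in both pairs for 34 of them, against 13.3% of all genes, and above 1 in both for 0, against 14% of all genes. Of 43 mitosis genes, 35 were lower in both and 32 had the interval below 1 in both. The sizes were small. The median log2 KO/WT of the DNA replication genes was -0.30 in the HSC pair and -0.29 in the CD41low/CD9low pair, and that of the mitosis genes -0.46 and -0.35, against -0.01 and 0.01 for all genes. Genes of a cell cycle phase vary together between cell preparations, so that their counts are not separate observations.

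**Figure D4:**
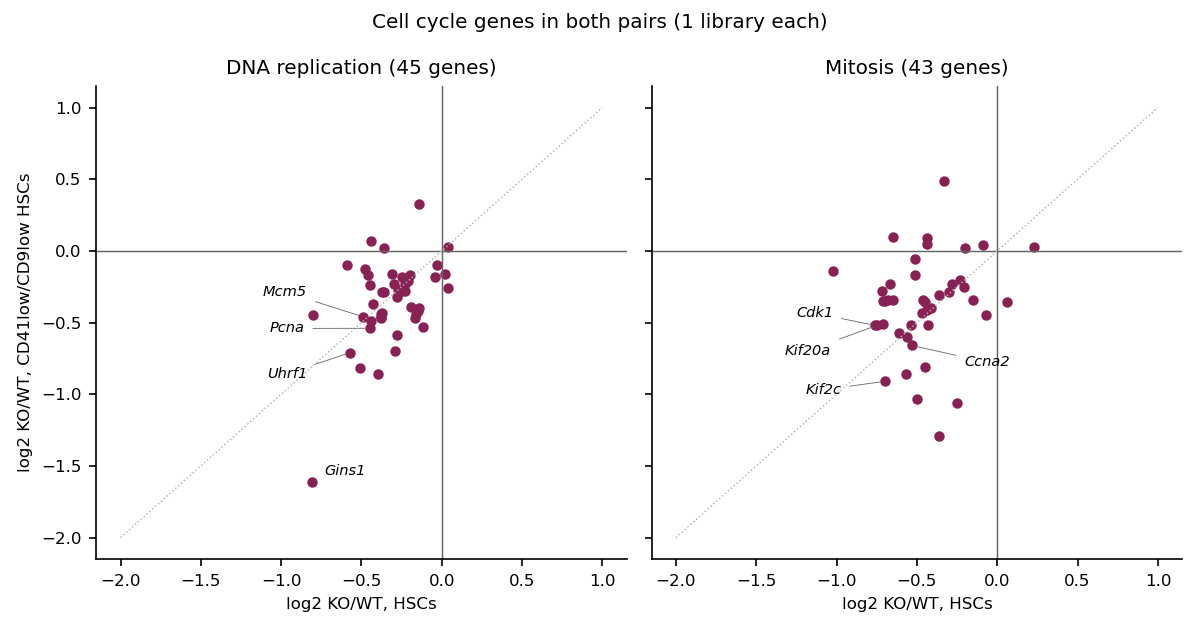
Log2 KO/WT in CD41low/CD9low HSCs (vertical axis) against HSCs (horizontal axis) for 45 DNA replication genes (left) and 43 mitosis genes (right), 1 library per genotype and population. The dotted line marks equal values, and 39 and 35 genes are in the lower left, below 0 in both pairs.

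Uhrf1, which carries DNA methylation through replication, had 193 CPM in WT and 129.5 CPM in KO HSCs, and 254 CPM in WT and 156 CPM in KO CD41low/CD9low HSCs (adjusted p = 0.093). Pcna, the sliding clamp of DNA polymerases, had 215, 157, 218 and 150 CPM in WT HSCs, KO HSCs, WT CD41low/CD9low HSCs and KO CD41low/CD9low HSCs (adjusted p = 0.19). For Uhrf1 and Pcna both KO libraries were below both WT libraries. Gins1, a subunit of the replicative helicase, had log2 KO/WT values of -0.81 and -1.61. Cdk1, the kinase of entry into mitosis, had -0.76 and -0.52 and Ccna2, cyclin A2, had -0.53 and -0.66. Ccnd1, the G1 cyclin D1 and a target of canonical Wnt signalling, had 84.6 in WT and 52.4 CPM in KO HSCs, with 91.8 and 52.9 in the CD41low/CD9low pair (adjusted p = 0.091). Cdk6, its kinase partner, had values in the other direction, with log2 KO/WT of 0.88 and 0.52 (adjusted p = 0.091). In the list of G1 cyclins and Cdk inhibitors, 11 of 19 were lower in both pairs and 2 higher in both.

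Of the 43 tested genes of the canonical Wnt pathway and its targets, 0 were called by edgeR's quasi-likelihood test, with 15 higher and 10 lower in KO in both pairs and a median log2 KO/WT of 0.03. At an unadjusted p under 0.05, 2 were higher and 3 lower, against 900 higher and 699 lower of all 14745 genes tested. As lower, limma-voom, DESeq2 and the likelihood ratio test called 1 each in this list. Birc5, the apoptosis inhibitor survivin, had 42.1, 28.3, 35.0 and 19.3 CPM in WT HSCs, KO HSCs, WT CD41low/CD9low HSCs and KO CD41low/CD9low HSCs (adjusted p = 0.25), and it belongs to the mitosis list too. Of 34 non-canonical Wnt genes, 0 were called, 4 had an unadjusted p under 0.05, and 1 was called by limma-voom and 0 by DESeq2 or the likelihood ratio test. In this list 15 were higher in both and 2 lower in both, with a median log2 KO/WT of 0.28 in HSCs and 0.00 in CD41low/CD9low HSCs. Nfat5, Ptk7 and Rock2 had log2 KO/WT of 0.88, 0.90 and 0.38 in HSCs and of 0.07, 0.05 and 0.02 in CD41low/CD9low HSCs, where their counting intervals included 1. The study lists promoters bound by Gfi1b, LSD1 and beta-catenin from published data of different cells. Gfi1b was mapped in a hematopoietic precursor cell line, and beta-catenin and LSD1 in mouse embryonic stem cells. Binding in the HSCs sorted here is not among these data. Among 115 tested genes of that list, 0 were called, 44 were higher in both and 26 lower in both, against 28.5% and 27.3% of all genes tested. Of these, 11 were higher and 8 lower at an unadjusted p under 0.05, limma-voom called 3 as lower, and DESeq2 and the likelihood ratio test called 1 each as lower. Zfp13, one of them, had 47 and 161 counts in HSCs and 24 and 94 in CD41low/CD9low HSCs, in WT and KO (adjusted p = 0.29).

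The lists of genes of other blood cells differed in the share of members that were lower in KO in both pairs. Of 37 erythroid and heme synthesis genes, 0 were called by edgeR's quasi-likelihood test, DESeq2 or limma-voom, and 1 was called as lower by edgeR's likelihood ratio test. At an unadjusted p under 0.05, 11 were lower, against 699 lower and 900 higher of all 14745 genes tested. In both pairs 18 erythroid and heme synthesis genes were lower and 2 higher, against 27.3% and 28.5% of all genes tested. Car1, an early erythroid carbonic anhydrase, had 1005 and 347 counts in HSCs and 55 and 0 in CD41low/CD9low HSCs, in WT and KO (adjusted p = 0.17). The summed level of 8 erythroid markers was 73.9, 58.5, 137 and 18.1 CPM in WT HSCs, KO HSCs, WT CD41low/CD9low HSCs and KO CD41low/CD9low HSCs. None of 22 neutrophil granule genes was higher in both pairs and 8 were lower in both (36.36%, against 27.3% of all genes tested). In the HSC pair 14 of the 22 were higher in KO. Their median log2 KO/WT was 0.15 in the HSC pair and -2.19 in the CD41low/CD9low pair. The quasi-likelihood test and DESeq2 called 0 of them, limma-voom and the likelihood ratio test 1 each as lower, and 7 were lower at an unadjusted p under 0.05. Of 21 genes of MHC and antigen presentation, 14 were lower in both pairs and 2 higher in both, against 27.3% and 28.5% of all genes tested. Cd74, the invariant chain, had log2 KO/WT values of -0.51 and -0.85 and H2-Eb1 of -0.74 and -0.95. The quasi-likelihood test and DESeq2 called 0 members of the list, limma-voom and the likelihood ratio test 1 each as lower, and 4 were lower at an unadjusted p under 0.05. In the list of B and plasma cell genes, the quasi-likelihood test and DESeq2 called 0 of 9, limma-voom 2 as lower and the likelihood ratio test 1 as lower, with 3 lower at an unadjusted p under 0.05. In the list of T and NK cell genes, the quasi-likelihood test, DESeq2 and limma-voom called 0 of 10 and the likelihood ratio test 1 as higher, with 1 in each direction at an unadjusted p under 0.05. Of 7 B cell markers, 6 were below 1 CPM in all 4 libraries, among them Pax5 and Ms4a1. The other, Cd79b, had 21.25, 17.78, 30.25 and 27.75 CPM in WT HSCs, KO HSCs, WT CD41low/CD9low HSCs and KO CD41low/CD9low HSCs. Jchain, a plasma cell gene, had 67.67, 27.59, 0 and 0.518 CPM in the same order.

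**Figure D5:**
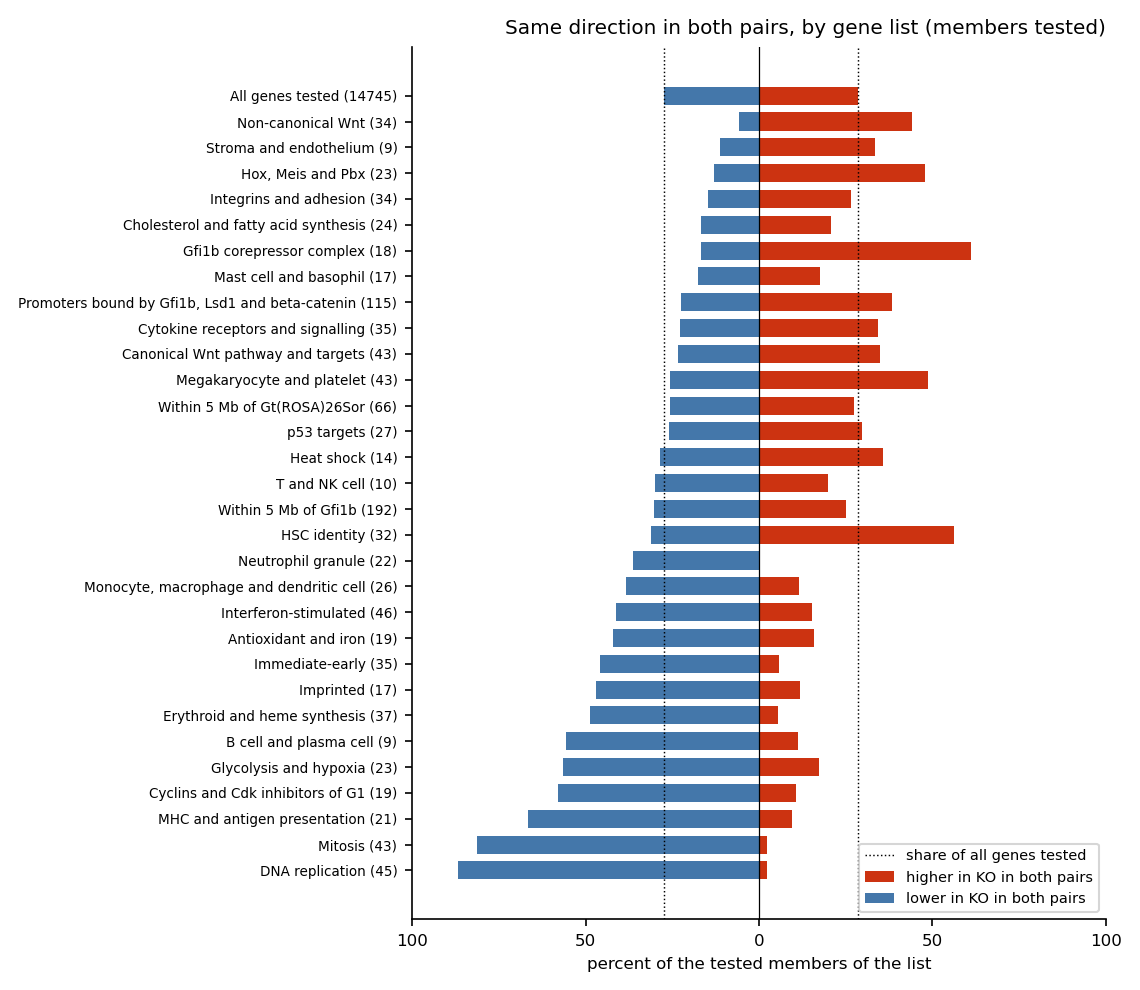
Percent of the tested members of each gene list, the sex-linked genes left out, that were higher (right) or lower (left) in KO in both pairs, with the number tested after the name. Dotted lines mark the shares of all 14745 genes tested, 28.5% higher and 27.3% lower, and the DNA replication and mitosis lists reach furthest to the left.

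The remaining lists had 0 shared calls in edgeR's quasi-likelihood test except where named, with from 2 to 8 members of a list at an unadjusted p under 0.05 in either direction. In these lists limma-voom called from 0 to 3 members, DESeq2 from 0 to 2 and the likelihood ratio test from 0 to 2. In the 34 integrin and adhesion genes, Itgb3 was the 1 call and Itgb2, the leukocyte integrin beta 2, had log2 KO/WT values of 0.84 and 0.77 (adjusted p = 0.061). In the 23 Hox genes and genes of their cofactors, 11 were higher in both pairs and 3 lower in both. Interferon-stimulated genes had 7 of 46 higher and 19 lower in both, heat shock genes 5 of 14 higher and 4 lower, and cholesterol and fatty acid synthesis genes 5 of 24 higher and 4 lower. Among antioxidant and iron genes 3 of 19 were higher and 8 lower in both, and among imprinted genes 2 of 17 were higher and 8 lower. Mast cell and basophil genes had 3 of 17 in each direction, stroma and endothelium genes 3 of 9 higher and 1 lower, and monocyte, macrophage and dendritic cell genes 3 of 26 higher and 10 lower, with Klf4 as the 1 call. Within 5 Mb of Gfi1b, 0 of 192 tested genes were called and 11 had an unadjusted p under 0.05, and within 5 Mb of the Rosa26 locus on chromosome 6 these were 0 and 5 of 66. Of all 14745 genes tested, 1599 had an unadjusted p under 0.05. Near Gfi1b limma-voom and DESeq2 called 0 and the likelihood ratio test 1, and near Rosa26 each of these called 1. Of 5 sex-linked genes 0 were called, 3 had an unadjusted p under 0.05, and 1, Kdm5d, was higher in both pairs. The Y-linked Kdm5d, Uty, Ddx3y and Eif2s3y had log2 KO/WT of 2.16, 1.93, 1.77 and 1.60 in the HSC pair. In the CD41low/CD9low pair they had 0.01, -0.33, -0.02 and -0.12. The part of this difference in the HSC pair was not tested.

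The 7 genes that the fit called but that did not go the same way in both pairs are Plagl1, Chl1, Slc9a9 and Diras2, higher in KO HSCs, and Igha, Nr4a2 and Atf3, lower in KO HSCs. Plagl1, an imprinted zinc finger gene, had 7 in WT and 5811 counts in KO HSCs, with 5 and 3 in the CD41low/CD9low pair. Igha, the constant chain of immunoglobulin A made by plasma cells, had 7110 and 508 counts in HSCs and 0 in both CD41low/CD9low HSC libraries. Igha was singled out after its values were seen. Both calls rested on the HSC pair. Chl1 (5 and 1), Diras2 (3 and 3) and Atf3 (0 and 1) also had too few counts in WT and KO CD41low/CD9low HSCs to give a direction there. Slc9a9 had 56 and 73 counts in that pair, and its ratio was within counting error of 1.

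Gene length moved with the genotype in HSCs. Over 4 equal groups of genes by exon length, the median log2 KO/WT in HSCs went from -0.157 in the shortest to 0.154 in the longest genes, and in CD41low/CD9low HSCs it was between 0 and 0.027. The median exon length was 5554 bases for shared higher, 4491 for shared lower and 4094 for all tested genes. With an offset that took this trend out of each pair, all 58 shared genes were still called and had the same direction, beside 96 higher and 44 lower genes called in all.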

How the data were processed

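RNA of sorted HSCs and CD41low/CD9low HSCs was made into libraries with a TruSeq Stranded mRNA kit. The authors aligned reads to mm10 (GRCm38) with TopHat2 2.0.10, per the submitters' processing notes, and counted them per Ensembl gene with HTSeq, and the deposited values are these counts without normalization. HTSeq's version, strand setting and annotation release are not given in the sources used here, so reads of antisense or near-identical genes may be misassigned. The 2 populations were counted on different gene lists, with 37140 identifiers in common. Reads assigned to no feature, from 60.1 to 105.3 per 100 counts on genes, were left out.

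Counts were tested with edgeR 4.0.16 (R 4.3.3): filterByExpr by genotype, TMM factors, estimateDisp, glmQLFit and glmQLFTest with population as block, two-sided, with Benjamini-Hochberg adjustment over 14745 genes. Replicates of a genotype are the 2 populations, which deviate from each other by population as well as by chance. Log2 KO/WT of a pair used a prior count of 2. Intervals of ratios are exact (Clopper-Pearson) at 95% and cover counting error only, as does the floor of 3 counts per library.

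The comparison, genes and 29 lists were chosen with earlier results of these data known. Named are Gfi1b, the 12 higher and 12 lower protein-coding shared calls with the largest smaller log2 ratio of the 2 pairs, at most 4 that are not protein-coding, called members and up to 4 with the smallest p in each list, and genes the study names; a few of these are not reported here. The list of promoters bound by Gfi1b, LSD1 and beta-catenin was copied from the study. Of 928 listed symbols 15 were not matched. Symbols, coordinates and exon lengths came from GENCODE M21 (GRCm38). Alternatives were RLE and total-count scaling, other filters and tests (DESeq2 1.42.0, limma-voom 3.58.1, the likelihood ratio test), no block, an exon length offset, and leaving out libraries or pairs. The sorted megakaryocytes of the study were not analysed here.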

Additional observations from a re-analysis of the deposited data

Results flagged for a closer look

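Nr4a2, an orphan nuclear receptor of the immediate-early genes, was called in the fit to both pairs but went opposite ways in them. Its log2 KO/WT was -2.11 in HSCs, from 4080 counts in WT and 768 in KO, and 1.52 in CD41low/CD9low HSCs, from 16 counts in WT and 71 in KO, which gives -3.63 for HSCs minus CD41low/CD9low HSCs. The counting intervals of both ratios left out 1. The difference between the pairs was not tested, since each has 1 library per genotype.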

How the results depend on the processing

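The number of genes called in the fit to both pairs, 49 higher and 16 lower in KO, was within 1.5 times with RLE scaling, with no filter on low counts and with the legacy quasi-likelihood fit. More genes passed with total-count scaling (87 higher, 37 lower), with at least 50 counts in at least 2 libraries (153 and 91), in the likelihood ratio test (128 and 80), in limma-voom (201 and 93), with the exon length offset (96 and 44) and, for lower genes, in DESeq2 (71 and 33). In these fits between 52 and 58 of the 58 shared genes were called, and each that was tested had the same direction. Without the replicate block of population, where the difference between populations counts as spread within a genotype, 0 higher and 0 lower genes were called. Leaving out each library in turn, which needs a fit without the block in which the lone sample of a genotype is assumed to vary like the others, gave from 0 to 3 higher and 0 to 0 lower genes. The library left out in the fit with 3 calls was KO CD41low/CD9low HSCs. In the leave-one-out fits between 256 and 529 genes had an unadjusted p under 0.05, genotype and population are mixed, and the direction turned for 12 shared genes. Over these fits log2 KO/WT ran from -0.32 to 3.34 for Cavin2, -0.75 to 3.54 for Clec1b, -1.85 to 6.64 for Kcnj5, -0.97 to 4.28 for Ltbp1, -0.29 to 3.88 for Mfsd2b, -1.43 to 5.26 for Mrvi1, -0.66 to 2.98 for Plek, -1.35 to 3.71 for Robo3 and -1.25 to 3.68 for Serpine2, lowest without KO HSCs, and from -3.75 to 0.98 for Klf4, -5.03 to 1.16 for Nr4a1 and -1.96 to 0.27 for mt-Rnr1, highest without WT HSCs. Genes past 1.5 fold in both pairs, 491 higher and 512 lower, numbered 282 and 247 under the filter of 50 counts in 2 libraries, with TMM factors estimated after it. Without that filter, 203 higher and 202 lower of all genes tested were past 2 fold in both pairs, and 271 were past 2 fold in opposite directions. The number of libraries and the depth of the CD41low/CD9low pair, from which several shared genes had under 100 counts, limit these results. With every alternative scaling, the medians of the DNA replication and mitosis lists were between -0.31 and -0.29 and between -0.48 and -0.45.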
